A study of Mus musculus with 2 samples.

Results

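Mir148a, Mir148b and Mir152 are the 3 mouse genes of the miR-148/152 seed family, and they were taken here as the rows of both gene tables whose Ensembl identifier carries one of these symbols in the GENCODE annotation. All 3 were found, of 1973 miRNA gene rows in all, and all 3 were detected, meaning at least 10 reads in each library. The reads came from the embryonic facial prominence, the swellings, mesenchyme largely of neural crest origin under an epithelial cover, that build the face and jaws. Each of the 2 libraries held RNA of microRNA size from healthy B6NCrl embryos of both sexes at embryonic day 12.5, pooled from 120 embryos for replicate 1 and from 88 for replicate 2. No treatment, mutation or other group was analysed here, so levels are descriptions of 1 tissue, and any test compares the 2 libraries rather than conditions.

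A microRNA is cut from a hairpin transcript, and its seed, bases 2 to 8 from the 5′ end, does most of the pairing with target mRNAs. Genes whose products share a seed can act on overlapping sets of targets. The miR-148/152 family is known for repressing the maintenance DNA methyltransferase Dnmt1, and miR-148a is known as one of the most abundant microRNAs of liver. A miRNA gene inside an intron is often transcribed with the gene that hosts it.

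The mature sequences show what the 3 genes share and where they part. The 3′ arms (RefSeq, GRCm38.p6), the arm that carries the seed of the family, are given with the seed in capitals:
miR-148a-3p: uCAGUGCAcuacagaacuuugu
miR-148b-3p: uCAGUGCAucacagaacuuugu
miR-152-3p: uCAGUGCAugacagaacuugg
The seed was the same in all 3. Counted from 1 at the 5′ end, miR-148a-3p and miR-148b-3p were identical at 20 of 22 bases and differed by C9U and U10C, just behind the seed. Against miR-148a-3p, miR-152-3p differed by C9U, U10G and U20G and was identical at 18 of 21 bases. Against miR-148b-3p it differed by C10G and U20G.

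The 5′ arms, which come from the other side of the same hairpins, are given in the same way:
miR-148a-5p: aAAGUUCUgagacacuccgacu
miR-148b-5p: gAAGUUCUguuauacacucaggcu
miR-152-5p: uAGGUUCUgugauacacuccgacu
The seeds of the 5′ arms of Mir148a and Mir148b were the same, and that of Mir152 differed from them by A3G. The tables count a whole hairpin as 1 gene, so reads of the 2 arms were not separated and no value below belongs to an arm.

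The gene rows that were counted are the hairpins themselves. They are shown with the 3′ arm in capitals, because their lengths and shared stretches decide how well a short read can be assigned:
Mir148a: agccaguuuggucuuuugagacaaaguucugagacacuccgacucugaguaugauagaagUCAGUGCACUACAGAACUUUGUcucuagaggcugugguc
Mir148b: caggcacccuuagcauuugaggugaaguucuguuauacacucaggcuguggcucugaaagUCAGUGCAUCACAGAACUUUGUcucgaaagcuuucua
Mir152: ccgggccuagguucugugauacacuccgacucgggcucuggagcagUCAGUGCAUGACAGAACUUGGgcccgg
Mir148a and Mir148b had a longest common stretch of 15 bases, ACAGAACUUUGUCUC, and neither shared a longer one with any other listed miRNA gene on the same strand. For Mir152 the longest was 12 bases, with Mir148a. No member shared a stretch of 20 bases with a miRNA gene at another place, so a read of a full mature strand differs between the 3 genes. Places outside the listed miRNA genes were not searched. The hairpins were 99, 97 and 73 bases long with a GC content of 45.5%, 45.4% and 61.6%. RNAfold gave predicted folding energies of -41.0 kcal/mol for Mir148a, -30.9 kcal/mol for Mir148b and -43.5 kcal/mol for Mir152, with 19 of 22, 17 of 22 and 19 of 21 bases of the 3′ arm paired.

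The libraries held 4719337 and 5929220 reads on the own strand of miRNA genes, and 395 genes were detected. Levels are given in CPM, the own-strand reads of a gene per 1000000 reads on all gene rows. The tissue label was set against marker genes. Mesenchyme and cartilage markers (6 of 6 detected, led by Mir214) summed to 6.47% and 6.42% of gene reads, epithelial markers (7 of 7) to 3.08% and 3.58%, and the endothelial Mir126a to 2.90% and 2.72%. Blood markers (6 of 6 with a row) summed to 658 and 775 CPM, striated muscle markers (2 of 5 detected, with Mir133a-2 at 0 reads) to 1081 and 1498 CPM, liver and gut markers (3 of 5) to 152 and 159 CPM, and neural markers (1 of 5, with Mir9-2 and Mir124a-1 at 0 reads) to 17.6 and 11.97 CPM. Of these neural and muscle genes, 5 of 5 and 4 of 5 share a stretch of 20 bases with another miRNA gene. The same holds for 3 of 6 mesenchyme and cartilage genes and 2 of 5 liver and gut genes. Genes with such a stretch can be undercounted. Mir206, which has none, held 98.8% and 98.3% of the muscle sum.

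Mir148a was the most abundant member, at a moderate level for the tissue. It had 5171 reads in replicate 1 and 5931 in replicate 2, or 1096 and 1000.3 CPM (1048 ± 67.5 CPM, SD, n = 2). It ranked 95 and 101 among the detected genes, and its level was 8.85 and 8.26 times the median detected gene of the same library. Mir335, the gene with the most counted reads, was at 61.1 and 71.2 times its level. Reads with several mapping places, 26.0% and 27.9% of all reads, were not counted on genes. Ranks, levels and shares therefore hold among the counted reads only. In a whole tissue, more cells that express a gene and more of its RNA per cell cannot be told apart.

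Mir148b was lower, with 787 and 1326 reads, or 167 and 224 CPM (195 ± 40.2 CPM, SD, n = 2). It ranked 182 and 158, and was above the median detected gene in both libraries, by 1.35 and 1.85 times. Mir152 was the lowest member, with 475 and 733 reads, or 101 and 124 CPM (112 ± 16.2 CPM, SD, n = 2). It ranked 210 and 196 and lay close to the median detected gene, at 0.813 and 1.02 times its level.

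The order of the members was the same in both libraries, and the ranges of neighbouring members did not overlap: the lowest value of Mir148a lay above both values of Mir148b, which lay above both values of Mir152. Mir148a exceeded Mir148b 6.57-fold in replicate 1 (exact 95% interval 6.09 to 7.09) and 4.47-fold in replicate 2 (4.21 to 4.75). It exceeded Mir152 10.9-fold (9.91 to 11.98) and 8.09-fold (7.49 to 8.75). The step from Mir148b to Mir152 was smaller, at 1.66-fold (1.48 to 1.86) and 1.81-fold (1.65 to 1.98). These intervals cover the counting error of reads only. No molecular identifiers were used, so reads copied from the same molecule could not be told apart. The folds compare reads, and whether the RNA of different genes was turned into reads equally well was not tested. Agreement of both libraries does not settle this, since both could share such a difference. The same limit holds for every comparison of levels between genes below. Set per 100 bases of the gene row, the order was the same, with means of 1059, 201 and 154 CPM for Mir148a, Mir148b and Mir152.

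**Figure D1:**
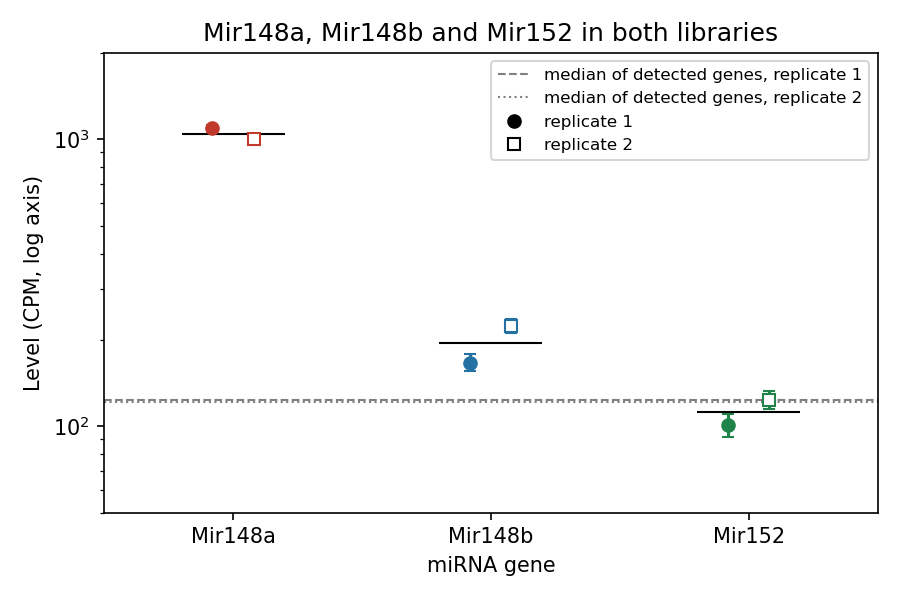
Level of each gene in CPM on a log axis, with filled circles for replicate 1, open squares for replicate 2, exact 95% counting intervals as bars and the mean of both as a black line. Mir148a lies near 1048 CPM, Mir148b at 167 and 224 CPM, and Mir152 at 101 and 124 CPM beside the grey lines that mark the median detected gene of each library.

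As a family the 3 genes held 6433 reads in replicate 1 and 7990 in replicate 2. That was 0.136% of gene reads (exact Clopper-Pearson 95% interval 0.133 to 0.140) and 0.135% (0.132 to 0.138), or 1363 and 1348 CPM. The family sum therefore differed little between the pools, while its make-up differed more. Mir148a made up 80.4% of the family in replicate 1 (interval 79.4 to 81.3) and 74.2% in replicate 2 (73.3 to 75.2). Mir148b made up 12.2% (11.4 to 13.1) and 16.6% (15.8 to 17.4), and Mir152 made up 7.38% (6.76 to 8.05) and 9.17% (8.55 to 9.83). For each gene the intervals of the 2 libraries did not overlap. They cover counting error alone, and on that basis 51.9% of all detected genes differed between the libraries (exact binomial test, below). The shares of the 3 genes add up to the whole family, so they cannot move independently. Over both libraries the shares were 77.3% ± 4.35, 14.4% ± 3.08 and 8.28% ± 1.27 (SD, n = 2).

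**Figure D2:**
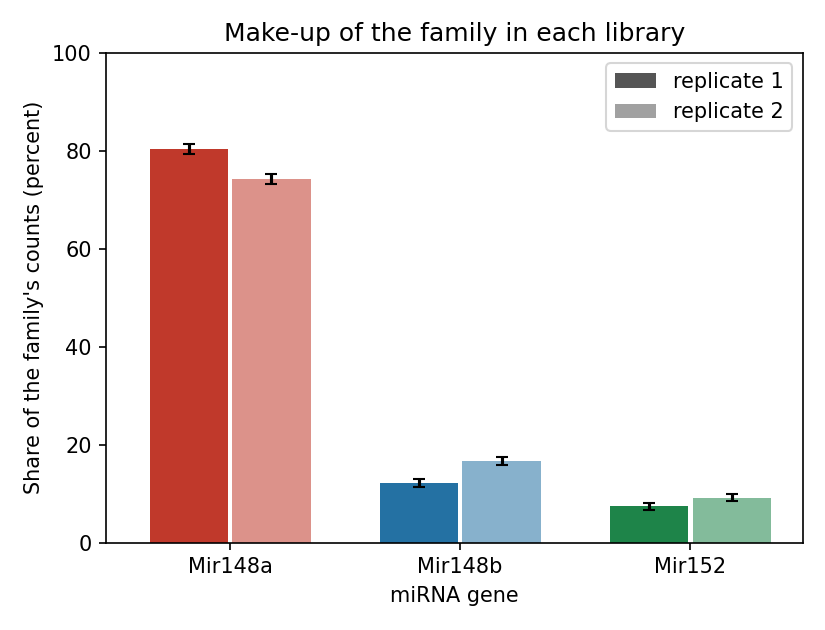
Share of the family's reads held by each gene, in percent, with dark bars for replicate 1, pale bars for replicate 2 and exact 95% counting intervals. Mir148a holds 80.4% and 74.2%, and both other genes hold more in replicate 2 than in replicate 1.

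Between the libraries the members moved in different directions by small amounts. The log2 ratio of replicate 2 over replicate 1, with TMM library sizes, was -0.14 for Mir148a (exact interval -0.19 to -0.08, exact binomial adjusted p = 2.16e-06). It was 0.42 for Mir148b (0.29 to 0.55, exact binomial adjusted p = 3.19e-10) and 0.29 for Mir152 (0.12 to 0.46, exact binomial adjusted p = 0.00153). Mir148a was thus 1.10-fold higher in replicate 1, and Mir148b and Mir152 were 1.34-fold and 1.22-fold higher in replicate 2. All 3 passed this test, which covers counting error alone. Of all detected genes 51.9% passed, 27.1% as higher in replicate 2 and 24.8% as higher in replicate 1. With a 2-fold limit added, 4.05% of the detected genes passed and no member did.

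The spread between the 2 pools was wider than counting error. The common biological coefficient of variation over the 395 detected genes was 0.190 (edgeR). It was estimated from these same 2 libraries. A test that uses about this value therefore counts their typical difference as noise, and few genes could pass it. The median absolute log2 ratio of a detected gene was 0.23, against 0.14 for Mir148a, 0.29 for Mir152 and 0.42 for Mir148b, and 107 detected genes had a larger ratio than Mir148b. Under edgeR's exact test with that coefficient set to 0.2, 0.506% of the detected genes passed and 0 members did, with unadjusted edgeR exact p of 0.740 for Mir148a, 0.317 for Mir148b and 0.492 for Mir152, and an edgeR adjusted p of 1 for each. The sums of the epithelial, striated muscle and blood markers, given with the tissue check, were also higher in replicate 2. The liver and gut sum was slightly higher as well. The endothelial and neural sums were lower, and the mesenchyme and cartilage sum slightly lower, in replicate 2. The exact binomial test called 27.1% of all detected genes higher there. Among the markers it called 6 of 7 epithelial, 2 of 2 tested muscle and 1 of 6 blood genes higher. Called lower were the epithelial Mir200a (log2 ratio -0.43), the endothelial Mir126a (-0.10) and the neural Mir9-3 (-0.57). Of 6 mesenchyme and cartilage genes the test called 2 higher and 2 lower, and of 3 tested liver and gut genes 0. It called 24.8% of all detected genes lower. The blood call was Mir451a (log2 ratio 0.66), while Mir486 had a log2 ratio of -0.31 and was not called. Higher too was the share of all reads that lay on miRNA genes (41.3% against 46.3%). Their part in the differences of Mir148b and Mir152 was not tested.

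**Figure D3:**
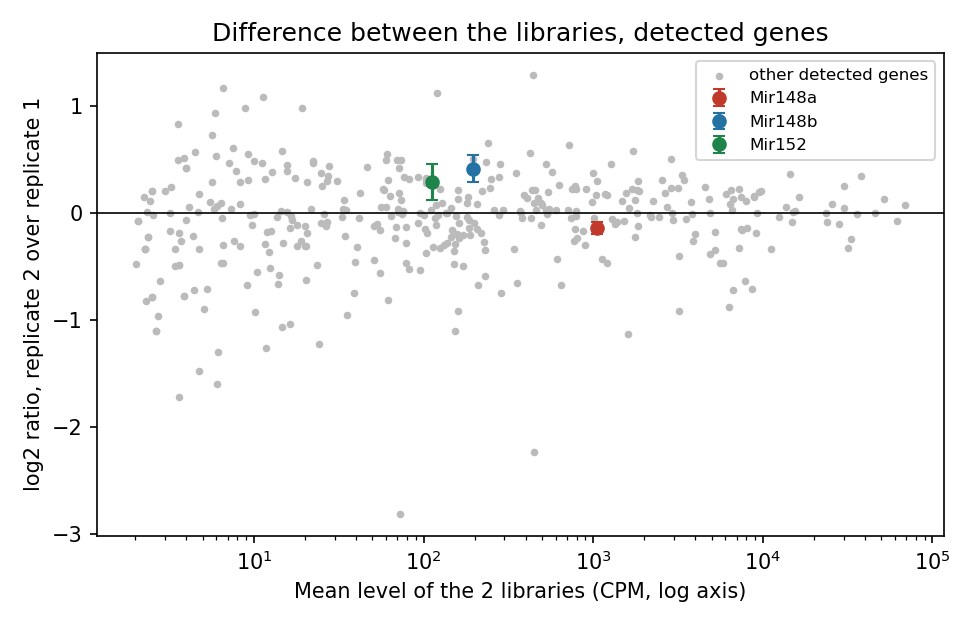
The log2 ratio of replicate 2 over replicate 1 against the mean level in CPM (log axis) for the 395 detected genes, with exact 95% counting intervals on the 3 members. Mir148a lies slightly below 0 and Mir148b and Mir152 above it, and all 3 lie within the cloud of other genes.

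The 3 genes lie on different chromosomes, and each is alone: no other listed miRNA gene starts within 10000 bases of one. Mir148a (ENSMUSG00000065505.1) is at chr6:51269812-51269910 on the minus strand of GRCm38, in no annotated host gene. Mir148b (ENSMUSG00000065560.1) is at chr15:103285125-103285221 on the plus strand, in an intron of Copz1. Mir152 (ENSMUSG00000065515.1) is at chr11:96850393-96850465 on the plus strand, in an intron of Copz2. Copz1 and Copz2 are related genes that encode zeta subunits of the COPI coat, which forms vesicles at the Golgi. No annotated gene other than the listed miRNA genes overlapped a member on the opposite strand. Opposite-strand reads were 0 for Mir148a and Mir148b in both libraries, and 1 and 0 for Mir152.

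Set among genes of the same kind of locus, Mir148a ranked 31 of the 127 detected genes with no host. Mir148b and Mir152 ranked 71 and 85 of the 176 detected genes that lie in introns, whose median level was 95.2 CPM. Both intronic members were above the middle of their class, Mir152 by less than Mir148b. The levels of the Copz1 and Copz2 mRNAs were not analysed here.

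The upstream surroundings of the 3 genes matched in 2 gene families. On that side of each hairpin, by its own strand, came a gene of the Nfe2 family of transcription factors, then a gene of the Cbx family of heterochromatin proteins. For Mir152 these were Nfe2l1 at 20.4 kb and Cbx1 at 41.8 kb. For Mir148b they were Nfe2 at 26.7 kb and Cbx5 at 45.3 kb. Distances were wider at Mir148a, with Nfe2l3 at 163 kb and Cbx3 at 200.4 kb. Of the 1894 miRNA gene rows with a known position, 6 (0.317%) lay within 200000 bases of an Nfe2 family gene, and 3 of those 6 were these members. Within 1000000 bases of a Cbx gene lay 19 rows (1.00%), of which 16 were not members. On the downstream side the nearest coding genes did not match, being Npvf for Mir148a, Gpr84 for Mir148b and Cdk5rap3 for Mir152, and Mir148a has no Copz host. These gene families were chosen after the neighbours had been seen, so the match is a description.

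**Figure D4:**
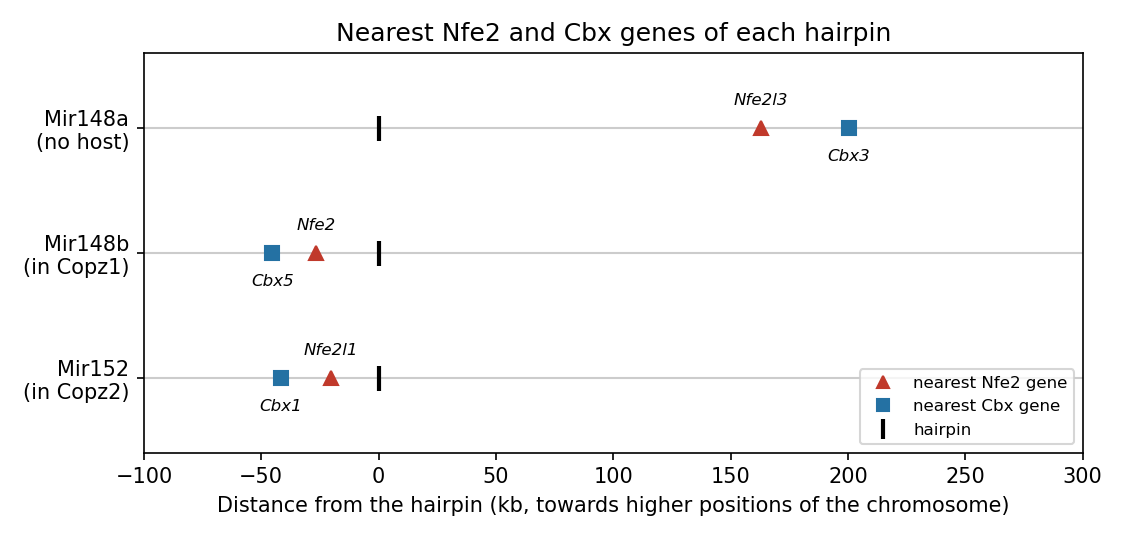
Distance in kb from each hairpin (black tick, at 0) to the nearest edge of the nearest Nfe2 family gene (triangle) and Cbx gene (square), with positive values towards higher chromosome positions. The Nfe2 gene is nearer than the Cbx gene at all 3 loci, and both lie on the right of Mir148a, which is on the minus strand, and on the left of Mir148b and Mir152.

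The seed letters of the family are not private to it. The letters CAGUGCA, searched on the mature strands only, occurred in 17 of 1738 mature sequences of RefSeq (0.978%). They stood at bases 2 to 8 in 3 of these, the 3′ arms of the members, so no other mature sequence in that table had the family's seed. In 7 sequences the same letters stood 1 base earlier, at bases 1 to 7. Of these, 3 came from detected genes, and they are shown with the shared letters in capitals, to be set beside the 3′ arms above:
miR-130a-3p: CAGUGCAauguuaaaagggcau
miR-130b-3p: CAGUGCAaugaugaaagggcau
miR-301a-3p: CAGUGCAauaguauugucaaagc
The seed of these microRNAs is shifted by 1 base, which makes them a separate family. The other 4 of the 7 were miR-130c, miR-6341 and miR-6389, whose genes had 0 reads in both libraries, and miR-721, whose gene was not analysed here. In the other 7 sequences the letters began further in. They ran partly over the seed in miR-449c-5p (from base 4), miR-139-5p (from base 5) and miR-141-5p (from base 8), and lay behind it, from base 12, in 4 others such as miR-17-5p and miR-106b-5p.

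The family with the shifted seed held far more of the counted reads in the same libraries. Mir130a (27469 and 32843 CPM), Mir130b (7632 and 8324 CPM), Mir301 (2224 and 2181 CPM) and Mir301b (174 and 187 CPM) summed to 3.75% of gene reads in replicate 1 (interval 3.73 to 3.77) and 4.35% in replicate 2 (4.34 to 4.37). This was 27.5 and 32.3 times the Mir148 and Mir152 family. Mir301b, at 181 ± 8.98 CPM (SD, n = 2), lay between the 2 values of Mir148b. These 4 genes share no stretch of 20 bases with a miRNA gene at another place, so both families were counted on the same terms in that respect. Whether the RNA of both families was turned into reads equally well was not tested.

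Related host genes also carry the Mir26 family (in Ctdsp1, Ctdsp2 and Ctdspl) and the Mir103 and Mir107 family (in Pank1, Pank2 and Pank3). Mir26b, in an intron of Ctdsp1, stood at 24699 and 26388 CPM and held 99.8% of its family in each library. Mir107, in an intron of Pank1, stood at 1671 and 1952 CPM and held 95.5% and 95.3%. The leading gene of the Mir148 and Mir152 family took 80.4% and 74.2%, and that of the Mir130 and Mir301 family 73.3% and 75.4%. In both of these the leading gene, Mir148a or Mir130a, was one without a host. The shares were not tested against each other, because 2 of 3 Mir26 genes and all 3 genes of the Mir103 and Mir107 family share a stretch of 20 bases with another miRNA gene, and reads lost to several mapping places can lower the minor members. In sum the Mir103 and Mir107 family was closest in level, at 1749 and 2049 CPM, or 1.28 and 1.52 times the Mir148 and Mir152 family.

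**Figure D5:**
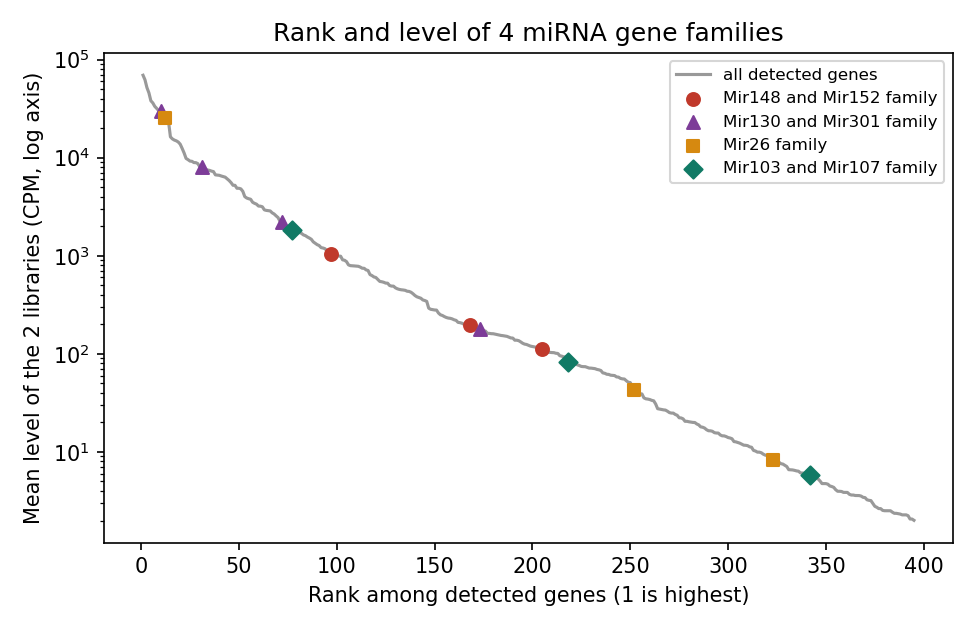
Mean level of the 2 libraries in CPM (log axis) against rank for the 395 detected genes (grey line), with 4 families marked. The Mir148 and Mir152 family (circles) sits at ranks 97, 168 and 205 by mean level, below the leading genes of the 3 other families.

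The Mir29 family is also known for acting on DNA methyltransferase mRNAs, chiefly Dnmt3a and Dnmt3b. It was low in this tissue, with 2 of its 4 genes detected. Mir29a stood at 58.3 and 52.5 CPM and Mir29c at 49.8 and 70.7 CPM, whereas Mir29b-1 had 5 and 12 reads and Mir29b-2 had 0 and 6. The family summed to 109 and 126 CPM, 0.0801 and 0.0936 times the sum of the Mir148 and Mir152 family and close to the level of Mir152 alone. Of the 4 genes, 3 share a stretch of 20 bases with another miRNA gene, and can be undercounted. Of the 2 genes tested between the libraries, Mir29c was called higher in replicate 2 (log2 ratio 0.50, exact binomial adjusted p = 5.00e-05) and Mir29a was not called (-0.16, exact binomial adjusted p = 0.295). This test passed 51.9% of all detected genes, and with the coefficient set to 0.2 Mir29c did not pass (edgeR exact test, adjusted p = 1).

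The genes most like each member in level were found as the 3 with the smallest Euclidean distance of log2(CPM + 1) over the 2 libraries, a likeness that rests on 2 values. For Mir148a they were Mir467c (1067 and 1000.5 CPM), Mir540 (1026 and 1002 CPM) and Mir341 (949 and 1027 CPM), at distances of 0.04, 0.09 and 0.21. For Mir148b they were Mir185 (171 and 230 CPM), Mir32 (161 and 230 CPM) and Mir27a (174 and 194 CPM), at 0.05, 0.06 and 0.21. For Mir152 they were Mir701 (100.4 and 125 CPM), Mir34a (92.4 and 115 CPM) and Mir7b (91.5 and 115 CPM), at 0.01, 0.16 and 0.17. Of these 9 genes Mir467c and Mir27a share a stretch of 20 bases with another miRNA gene, and their levels are less certain.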

How the data were processed

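Small RNA was sequenced in 2 libraries of 1 group. The deposited values are raw counts of reads on each miRNA gene, 1 table a library, with columns for both strands, the own strand and the opposite strand. Per the labels and library descriptions the assembly was mm10 and the annotation GENCODE M4. The counts were not normalised or pooled, and the aligner and counter are not given in the sources used here. Unmapped reads (25.7% and 19.4%), reads with several mapping places (26.0% and 27.9%) and reads outside genes (5.57% and 4.72%) stayed out of library sizes. Own-strand reads, from the column that counts 1 strand only and is the larger of such columns, made up 96.8% and 96.7% of gene reads.

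Identifiers were matched without version to GENCODE M21 on GRCm38, for 1894 of 1973 rows. Sequences are from RefSeq. All 3 members matched, with both arms, and their hairpins had the positions of the table rows. The mature sequence miR-301b-3p was not used here. A detected gene had at least 10 reads in both libraries. A count of 0 allows up to 3 reads, or 0.636 and 0.506 CPM.

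The libraries were compared per gene with a two-sided exact binomial test, Benjamini-Hochberg adjusted over 395 genes at 0.05. The test was checked only on simulated counts with counting error alone, so that check does not cover the spread between the pools. A quasi-likelihood fit had no residual degrees of freedom. Since 205 genes differed beyond counting error, the libraries were not 1 library deposited again. R 4.3.3, edgeR 4.0.16, DESeq2 1.42.0, RNAfold 2.7.2 and scipy 1.17.1 were used. Named genes were the members, the compared families, the Mir29 family, the most abundant gene and the 3 genes nearest each member in level. Marker lists had no row for Mir142, Mir1a-2 and Mir9-1. The members and lists were chosen with earlier results of these data known.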

Additional observations from a re-analysis of the deposited data

How the results depend on the processing

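Of 73 alternatives over 17 results, 33 could not have moved a result and say nothing about stability. These left out 1 of the 2 libraries, changed the count minimum for a rank, or removed shared stretches from a family that has none. Of the other 40, 31 left the value little changed, among them TMM and DESeq2 scaling. This meant within the spread of the libraries or on the same side of the threshold. For the number of genes that differ between the libraries it meant close to 205 (194 to 214). Several of the 31 also had little room to move, and say little about stability. The TMM factors were 0.998 and 1.002. Opposite-strand reads of each member were 0 or 1, so summing both strands could hardly change the shares within the family. Mir26b, which shares no stretch, held 99.8% of the Mir26 family. Per 100 bases of the gene row, Mir152 rose to 154 CPM and to 10.9% of the family, by construction, since its row is the shortest. The family share was 0.131% with both strands summed and 0.0594% of all reads, again by construction of the denominator. The number of genes that differ between the libraries, 205, was 16 with a limit of 2-fold and 2 with the coefficient of variation fixed at 0.2. Under that fixed coefficient the log2 ratios of Mir148a (-0.14), Mir148b (0.42) and Mir152 (0.29) no longer passed. That coefficient is close to the spread of these same 2 libraries, so few genes could pass. For the Mir103 and Mir107 family no value without shared stretches could be had, since all 3 genes share one. No paired analysis was possible because the libraries form 1 group. With 2 pools, the spread of any value rests on 1 difference.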
